A study of Mus musculus with 77 samples.

Results

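Genes that mark the endothelium of the liver were followed across the 10 treatment groups of the study, among the 55487 genes of the count table. The 10 genes were chosen by the cell type they mark, with earlier results of these data known. The 5 sinusoidal genes were Stab1, Stab2, Lyve1, Clec4g and Fcgr2b, and the 5 capillary and general endothelial genes were Cd34, Vwf, Plvap, Aqp1 and Pecam1. All 10 passed the filter on low counts and were among the 14904 genes tested.

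RNA was sequenced from the left lateral liver lobe of 77 male C57BL/6JRj mice, 1 library per mouse. DIO-MASH mice (diet-induced obesity with metabolic dysfunction-associated steatohepatitis) arrived at 5 to 6 weeks of age and ate the Gubra Amylin NASH diet, rich in fat, fructose and cholesterol, for 34 weeks before treatment. Each had a liver biopsy before dosing and was selected on its steatosis and fibrosis, so the DIO-MASH groups hold selected, previously biopsied animals. Semaglutide, a GLP-1 receptor agonist, was injected under the skin once daily at 123 µg per kg for 8, 16 or 24 weeks (7, 8 and 8 mice). Chow reversal mice were switched from the diet to chow and dosed with vehicle for the same times (7, 8 and 8 mice). Vehicle mice stayed on the diet and received vehicle for 8, 16 or 24 weeks (9, 8 and 7 mice), and 7 mice kept on chow throughout received vehicle for 24 weeks. The age of the DIO-MASH mice at the start of treatment is also given as 34 to 35 weeks, which is younger than the arrival age and the weeks of diet add up to, so the exact age at sampling is uncertain.

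Liver sinusoidal endothelial cells line the smallest blood channels of the liver, have open pores without a continuous basement membrane, and clear waste molecules from blood through scavenger receptors. In chronic liver injury they can lose their pores and take on features of ordinary capillaries, a change known as capillarization, with CD34 and von Willebrand factor as classical markers. Stab1 and Stab2 encode the stabilins, large scavenger receptors. Lyve1 encodes a hyaluronan receptor shared with lymphatic vessels, Clec4g a C-type lectin, and Fcgr2b the inhibitory Fc receptor that takes up immune complexes. Cd34 encodes a sialomucin of capillaries and progenitor cells, Vwf the clotting glycoprotein stored in endothelial granules and platelets, Plvap the diaphragm protein of fenestrae and caveolae, Aqp1 a water channel, and Pecam1 the junction protein CD31.

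In bulk tissue, fewer cells of a type and less RNA per cell cannot be told apart. Several of the genes are also transcribed outside the endothelium: Stab1 and Lyve1 in macrophages, Fcgr2b in B cells and macrophages, Vwf in megakaryocytes, Aqp1 in bile duct cells, and Pecam1 in leukocytes and platelets. Fcgr2b is close in sequence to other Fc receptor genes, so its counts may share reads with them. Stab1, Stab2, Clec4g, Fcgr2b and Cd34 each overlap exons of a gene on the opposite strand. The library kit was directional, but the strand setting of the counting is not given in the sources used here.

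The genes lie on 7 chromosomes (GRCm38). Stab1 is at chr14:31139013-31168641, Stab2 at chr10:86841198-87008025, Lyve1 at chr7:110850607-110863239, Clec4g at chr8:3707064-3720651, Fcgr2b at chr1:170958617-170976547, Plvap at chr8:71497765-71511752 and Pecam1 at chr11:106654217-106750628, all on the minus strand. Cd34 at chr1:194938819-194961279, Vwf at chr6:125546774-125686679 and Aqp1 at chr6:55336432-55348555 are on the plus strand. RefSeq promoters (GRCm38.p6) matched 6 of the 10 genes, namely Stab1, Stab2, Clec4g, Fcgr2b, Cd34 and Aqp1. The stretch before the start is shown for 4 of them, because Stab1, Stab2 and Cd34 fell with chow reversal at all 3 times while Clec4g did not and was called higher with semaglutide at 24 weeks. Aqp1, called higher with semaglutide at 8 weeks, is not shown, and its 250 bases held 1 ETS-type and 2 KLF-type matches of the motifs given next. It is 250 bases long for Stab1 (chr14:31168642-31168891, minus strand) and Clec4g (chr8:3720652-3720901, minus strand), and was shortened to 167 bases for Stab2 (chr10:87008026-87008192, minus strand) and 248 for Cd34 (chr1:194938571-194938818, plus strand) to stay outside the annotated gene. The bases left out for Stab2 and Cd34 are those nearest the RefSeq start, and they were not searched. Capitals mark matches on either strand to 3 motifs of factor families known in endothelium. The ETS-type letters searched were AGGAAG. The letters of the zinc finger family named after its GATA core were AGATAA, and those of the Krüppel-like (KLF) family were CCACCC.
Stab1: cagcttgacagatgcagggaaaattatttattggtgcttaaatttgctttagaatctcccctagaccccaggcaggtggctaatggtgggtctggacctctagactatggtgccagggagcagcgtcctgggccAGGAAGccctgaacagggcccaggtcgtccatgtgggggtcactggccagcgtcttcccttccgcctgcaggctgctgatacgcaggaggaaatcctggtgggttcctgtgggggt
Stab2: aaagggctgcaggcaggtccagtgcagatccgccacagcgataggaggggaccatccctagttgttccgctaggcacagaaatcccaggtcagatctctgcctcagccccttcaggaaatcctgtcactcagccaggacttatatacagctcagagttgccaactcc
Clec4g: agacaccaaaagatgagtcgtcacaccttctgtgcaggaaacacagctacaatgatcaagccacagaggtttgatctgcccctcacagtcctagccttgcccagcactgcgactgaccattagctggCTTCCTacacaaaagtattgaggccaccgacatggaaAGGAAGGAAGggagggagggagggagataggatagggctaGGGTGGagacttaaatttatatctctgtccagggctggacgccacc
Cd34: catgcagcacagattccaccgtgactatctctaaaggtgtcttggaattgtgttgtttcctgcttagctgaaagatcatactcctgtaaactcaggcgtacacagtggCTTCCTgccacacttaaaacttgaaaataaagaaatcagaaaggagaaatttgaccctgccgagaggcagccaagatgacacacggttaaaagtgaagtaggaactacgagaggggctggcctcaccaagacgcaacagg
Clec4g held 3 ETS-type matches, of which those starting 86 and 82 bases before the start overlap by 2 bases, and 1 KLF-type match at 46 bases. Stab1 and Cd34 held 1 ETS-type match each, at 116 and 142 bases before the start, and the Stab2 stretch held none of the 3 motifs. Of 32851 RefSeq promoters, 29.5% held the ETS-type letters, 28.1% the KLF-type and 9.99% the GATA-type in 250 bases. In the 167 of these 250 bases farthest from the start, as for Stab2, the shares were 20.1%, 18.5% and 7.24%. These matches describe letters in a window, not sites in use.

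Libraries held 8883150 to 37631072 counts, with a median of 16406937. Lyve1 and Cd34 had the lowest counts of the 10 genes, down to 16 and 12 in a library, while Stab1, Stab2, Clec4g, Fcgr2b, Plvap, Aqp1 and Pecam1 were never under 111. Replicate 4 of the vehicle group at 8 weeks was the lowest of its 9 mice for 9 of the 10 genes, with a median deviation of -0.83 on the log2 scale, and replicate 5 of the chow group had a Vwf level far above its group. The 3 semaglutide libraries that came from a separate run of library numbers (replicates 7 and 8 at 16 weeks and replicate 8 at 24 weeks) had 3.34% to 4.11% of counts in predicted genes, while the range over the remaining 74 libraries was 1.07% to 2.73%. Replicate 7 of the vehicle group at 8 weeks has a library number at the place where the other runs of numbers have a chow reversal library of 8 weeks. Its Stab2 (66.8 CPM) and Lyve1 (22.5 CPM) were above all 7 chow reversal mice of that time. So were its Stab1 (76.4), Cd34 (8.16), Vwf (11.7) and Plvap (62.8), while its Clec4g (36.4) and Fcgr2b (38.8) were inside their range. The same genes are compared between these groups below, so their levels cannot check its label. Many, but not all, of the results that changed without these libraries are given with and without them.

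Levels per transcript length differed widely among the 10 genes. Values are given as CPM, the TMM-scaled count relative to library size, and the comparison between genes uses the group mean CPM per kilobase of the longest annotated transcript. In vehicle mice at 24 weeks Plvap (37.8), Aqp1 (34.4) and Clec4g (30.2) were highest, followed by Fcgr2b (10.9), Stab1 (9.04), Stab2 (8.19), Pecam1 (7.38) and Lyve1 (3.88), with Cd34 (1.86) and Vwf (1.81) lowest. In chow-fed mice Aqp1 (39.4) and Clec4g (37) stood above Plvap (17.8), and Lyve1 (0.797) and Cd34 (0.469) were the lowest, below Vwf (1.24). The 2 classical capillary markers were thus among the least abundant of the set per unit of length in both groups. Within a group, single mice differed most for Cd34 (pooled SD 0.68 on the log2 scale) and Lyve1 (0.50) and least for Stab2 (0.24) and Stab1 (0.26).

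**Figure D1:**
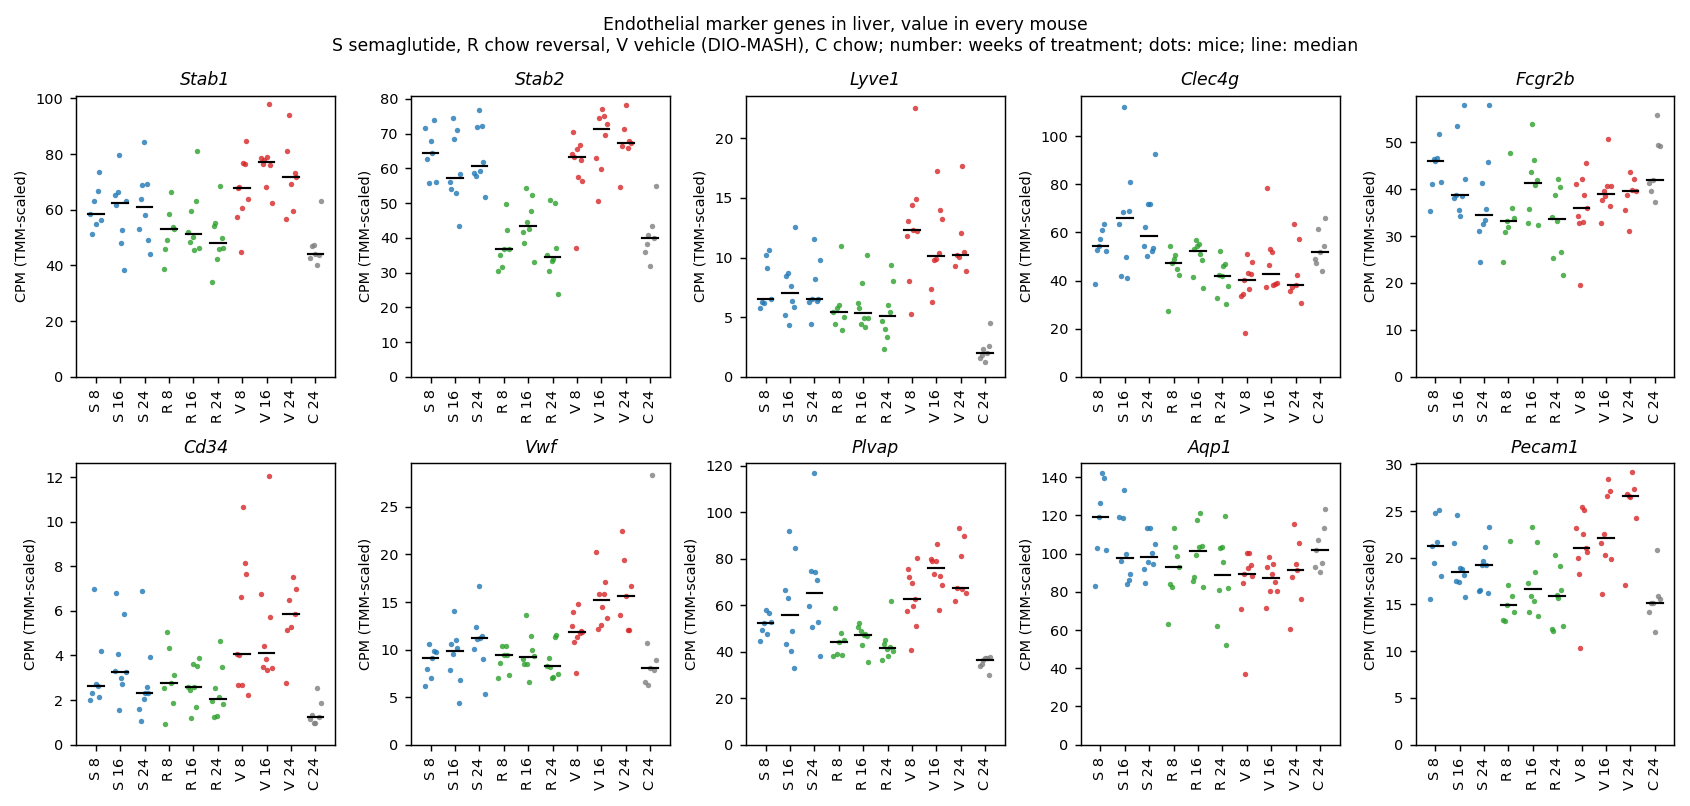
TMM-scaled CPM (vertical axes, linear and starting at 0) of the 10 genes in every mouse, with the groups on the horizontal axes (semaglutide, chow reversal and vehicle at 8, 16 and 24 weeks, and chow at 24 weeks). Each dot is a mouse and each line a group median; the Lyve1 medians are 6.51 to 6.99 CPM with semaglutide, 5.07 to 5.40 with chow reversal, 10.1 to 12.3 with vehicle and 2.04 with chow.

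Long feeding of the MASH diet was compared with chow at 24 weeks. The scavenger and hyaluronan receptors Stab1, Stab2 and Lyve1 and the capillary genes Cd34, Vwf, Plvap and Pecam1 were higher in vehicle mice, so genes of both classes rose together. Clec4g, Fcgr2b and Aqp1 were not called. The largest differences were those of Lyve1 (log2 fold change 2.27) and Cd34 (1.98). By edgeR's quasi-likelihood test with Benjamini-Hochberg adjustment, 7 of the 10 genes were called higher and 0 lower, where 25.8% of all genes tested were higher and 22.0% lower. The median log2 fold change was 0.66 over the 10 genes and -0.02 over all genes tested.

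Lyve1 measured 8.91 to 17.7 CPM (median 10.2) in vehicle mice at 24 weeks, against 1.27 to 4.53 CPM (median 2.04) in chow-fed mice. Every vehicle mouse lay above every chow-fed mouse, and the log2 fold change was 2.27 ± 0.28 (SE; n = 7 and 7; edgeR adjusted p = 1.4e-10). Cd34 measured 2.75 to 7.5 CPM (median 5.85) in vehicle mice, against 0.955 to 2.53 CPM (median 1.24) in chow-fed mice. Its groups did not overlap either, with a log2 fold change of 1.98 ± 0.37 (edgeR adjusted p = 6.2e-06). Plvap, the diaphragm gene, measured 61.8 to 93.3 CPM (median 67.4) in vehicle mice, against 29.9 to 37.7 CPM (median 36.5) in chow-fed mice. Its log2 fold change was 1.09 ± 0.16 (edgeR adjusted p = 2.8e-08). Lyve1, Cd34 and Plvap were the 3 of the 10 genes whose groups did not overlap, all higher with the diet, where 13.9% of all genes were higher without overlap.

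The stabilins and Pecam1 moved less. Stab2 measured 54.7 to 78.2 CPM (median 67.1) in vehicle mice, against 31.8 to 54.8 CPM (median 39.9) in chow-fed mice, and the groups met at a single pair of mice. Stab2 had a log2 fold change of 0.73 ± 0.13 (edgeR adjusted p = 2.1e-06), Stab1 one of 0.62 ± 0.14 (edgeR adjusted p = 0.00013) and Pecam1 one of 0.71 ± 0.14 (edgeR adjusted p = 2e-05). Vwf measured 12.0 to 22.5 CPM (median 15.7) in vehicle mice, against 6.28 to 28.4 CPM (median 8.04) in chow-fed mice. One chow-fed mouse, replicate 5, was above every vehicle mouse, while the other 6 were at or below 10.7 CPM and so below all of them. The log2 fold change of Vwf was 0.54 ± 0.21 (edgeR adjusted p = 0.027) with that mouse and 0.98 (edgeR adjusted p = 8e-06) without it. Leaving out 1 mouse at a time ended the Vwf call in 7 of 14 cases (vehicle replicate 2 or 3 or chow replicate 1, 3, 4, 6 or 7; adjusted p up to 0.089), and fitting only these groups gave 0.53 (0.15).

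The other 3 genes were not called. Clec4g had a log2 fold change of -0.29 (95% interval -0.65 to 0.06), Fcgr2b one of -0.22 (-0.51 to 0.07) and Aqp1 one of -0.20 (-0.49 to 0.09). All 3 signs depend on the scaling: set to library totals in place of TMM, the values were 0.12, 0.21 and 0.22. That scaling moved the median of all genes to 0.40 in this comparison. A change of scaling shifts all genes by nearly the same amount. The 3 genes were therefore bound to stay below the median gene, which is no check on their signs. Beside these differences, most marker genes of macrophages, bile duct, stellate cells, portal fibroblasts and T cells were higher and hepatocyte genes lower in vehicle mice. In all, 6 of 6 recruited macrophage genes were called higher (summed level 453 to 791 CPM in vehicle mice, against 45 to 137 CPM in chow-fed mice), 3 of 5 Kupffer cell genes higher (502 to 916 CPM in vehicle mice, against 85.9 to 269 CPM in chow-fed mice), 5 of 7 cholangiocyte genes higher and 1 lower (20.6 to 60.7 CPM in vehicle mice, against 22.8 to 31.4 CPM in chow-fed mice), and 10 of 10 hepatocyte genes lower (49200 to 65500 CPM in vehicle mice, against 113000 to 143000 CPM in chow-fed mice). Stellate cell genes were higher for 7 of 7 (349 to 505 CPM in vehicle mice, against 153 to 196 CPM in chow-fed mice), and portal fibroblast and mesothelium genes for 7 of 9 (41.6 to 98.8 CPM in vehicle mice, against 9.61 to 24.6 CPM in chow-fed mice). T cell genes were higher for 3 of 4 (2.87 to 9.36 CPM in vehicle mice, against 0.908 to 2.79 CPM in chow-fed mice). Lymphatic genes were higher for 2 of 5 and lower for 0 (58.3 to 139 CPM in vehicle mice, against 57.9 to 163 CPM in chow-fed mice). No marker of these lists was at 0 in a whole group. Their part in the endothelial values was not tested.

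**Figure D2:**
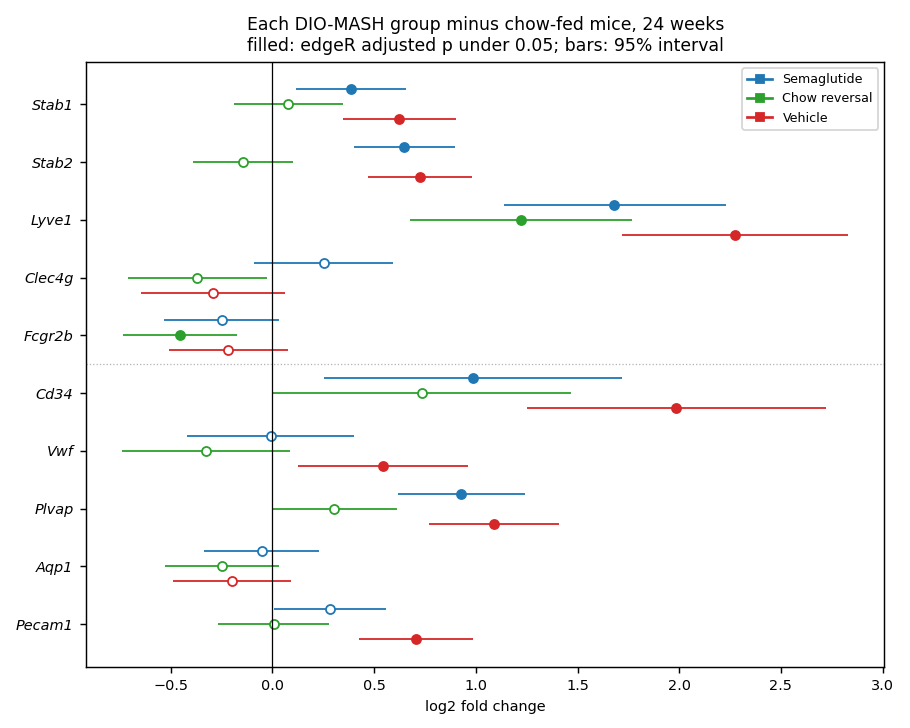
Log2 fold change at 24 weeks (horizontal axis) of each gene (rows) in semaglutide, chow reversal and vehicle mice, each against the same 7 chow-fed mice; bars are 95% intervals and filled circles passed an edgeR adjusted p of 0.05. Lyve1 is above 0 in all 3 groups (1.68, 1.22 and 2.27), while Clec4g, Fcgr2b and Aqp1 lie between -0.45 and 0.25.

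Chow reversal was compared with vehicle at each time to see which genes fell when the diet was withdrawn. Both stabilins, Lyve1, Cd34, Plvap and Pecam1 were called lower at 8, 16 and 24 weeks, and Vwf at 16 and 24 weeks. Clec4g, Fcgr2b and Aqp1, which had not been called in the diet comparison, were called at none of the 3 times. At 8 weeks 6 of the 10 genes were called lower and 0 higher (17.9% of all genes tested were lower), at 16 weeks 7 (16.2%) and at 24 weeks 7 (19.1%). The median log2 fold change of the 10 genes was -0.39, -0.54 and -0.74 at these times, against -0.03, -0.003 and 0.04 over all genes. The 24-week comparisons with vehicle and with chow use the same vehicle mice, so their directions are not independent.

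Stab2 had the smallest adjusted p of the 10 at each time. At 8 weeks it measured 30.5 to 49.6 CPM (median 36.9) with chow reversal, against 37.1 to 70.6 CPM (median 63.3) with vehicle. At 16 weeks the range was 32.9 to 54.4 CPM (median 43.5) with chow reversal, against 50.7 to 77.1 CPM (median 71.2) with vehicle. The 24-week values were 24.0 to 50.8 CPM (median 34.5) with chow reversal, against 54.7 to 78.2 CPM (median 67.1) with vehicle. The groups did not overlap at 24 weeks, and at 8 weeks the overlap came from vehicle replicate 4, the lowest library of its group, whose next lowest Stab2 value was 56.2 CPM. The log2 fold changes were -0.68 ± 0.12, -0.61 ± 0.12 and -0.87 ± 0.12 (SE; edgeR adjusted p = 1.1e-05, 3.9e-05 and 3e-08).

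Lyve1 fell by 1.10 ± 0.25, 0.86 ± 0.24 and 1.05 ± 0.25 on the log2 scale at 8, 16 and 24 weeks (edgeR adjusted p = 0.0004, 0.0041 and 0.0005). Its 24-week range was 2.34 to 9.37 CPM (median 5.07) with chow reversal, against 8.91 to 17.7 CPM (median 10.2) with vehicle, and only chow reversal replicate 7, at 9.37 CPM, was above the lowest vehicle mouse. Stab1 fell by 0.35 ± 0.13, 0.47 ± 0.13 and 0.55 ± 0.13 (edgeR adjusted p = 0.033, 0.004 and 0.00079). Its 24-week values were 34.0 to 68.4 CPM (median 48.1) with chow reversal, against 56.9 to 94.2 CPM (median 71.9) with vehicle.

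Among the capillary genes, Cd34 fell by 0.88 ± 0.33, 1.00 ± 0.33 and 1.25 ± 0.34 at the 3 times (edgeR adjusted p = 0.034, 0.015 and 0.0024). At 24 weeks it measured 1.24 to 4.67 CPM (median 2.06) with chow reversal, against 2.75 to 7.5 CPM (median 5.85) with vehicle. Plvap fell by 0.51 ± 0.15, 0.68 ± 0.15 and 0.79 ± 0.15 (edgeR adjusted p = 0.007, 0.00021 and 2.5e-05). At 16 weeks its values of 35.5 to 52.5 CPM with chow reversal lay below all vehicle values (57.9 to 86.2 CPM). It was then the 1 gene of the 10 without overlap, where 5.25% of all genes were lower without overlap. Pecam1 fell by 0.39 ± 0.13, 0.38 ± 0.13 and 0.70 ± 0.135 (edgeR adjusted p = 0.019, 0.02 and 2.2e-05).

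Vwf differed by -0.40 ± 0.20 at 8 weeks (edgeR adjusted p = 0.12) and fell by 0.66 ± 0.20 at 16 weeks (0.0072) and 0.87 ± 0.20 at 24 weeks (0.00043). Vwf was called at 8 weeks without chow replicate 5 and vehicle replicate 4 (-0.46, edgeR adjusted p = 0.027). It was also called with only these groups in the fit (-0.39, 0.014) and with library totals (-0.68, 0.0078), which called 5936 of all genes lower. The change of its effect from 8 to 24 weeks was not called (0.44), so no later start is shown for Vwf. At 24 weeks it measured 7.01 to 11.5 CPM (median 8.25) with chow reversal, against 12.0 to 22.5 CPM (median 15.7) with vehicle, and the groups did not overlap. Vwf and Stab2 were the 2 of the 10 genes without overlap at 24 weeks, where 5.15% of all genes were lower without overlap. The 7 calls at 24 weeks were kept when any single library was left out. At 8 weeks Stab1 was not called without chow reversal replicate 1, 2, 3, 6 or 7 or vehicle replicate 6, 7 or 8 (edgeR adjusted p up to 0.13). Cd34 was not called without chow reversal replicate 1, 2, 5, 6 or 7 or vehicle replicate 4, 6, 7 or 8 (up to 0.11), and Pecam1 not without chow reversal replicate 1, 2 or 7 or vehicle replicate 7 (up to 0.070). Vehicle replicate 7 is the mouse numbered in the place of a chow reversal library, and without it the values at 8 weeks were -0.31 for Stab1 (edgeR adjusted p = 0.079), -0.77 for Cd34 (0.078) and -0.335 for Pecam1 (0.053), leaving 3 calls. With no filter on low counts Stab1 (0.060) and Cd34 (0.057) were not called at 8 weeks either. At 16 weeks Cd34 was not called without vehicle replicate 6, its highest mouse (-0.71, edgeR adjusted p = 0.11), and Pecam1 had adjusted p values of 0.052 to 0.063 without vehicle replicate 6 or chow reversal replicate 2, 5 or 8.

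Semaglutide was compared with vehicle at the same times, in mice that all stayed on the diet. The called genes went in both directions, and Stab2 was not called. Aqp1 was the only gene called at 8 weeks, higher; Stab1 and Vwf were lower at 16 weeks; and at 24 weeks Cd34, Vwf and Pecam1 were lower and Clec4g higher. These are 1 of 10 genes higher at 8 weeks (2.24% of all genes tested), 2 lower at 16 weeks (5.80%), and 3 lower (13.6%) and 1 higher (10.8%) at 24 weeks. Scaling to library totals moved these counts to 0 higher and 2 lower (Lyve1 and Plvap) at 8 weeks, 0 higher and 5 lower at 16 weeks, and 0 higher and 6 lower at 24 weeks. Over all genes it moved the share of calls that were higher to 12.7%, 13.1% and 10.5% at the 3 times, against 39%, 52.6% and 44.2% with TMM. Of the 14904 genes tested, it called 154, 357 and 510 higher and 1054, 2367 and 4340 lower at these times. None of the 10 genes separated the groups without overlap at any time, where 1.85%, 0.899% and 4.12% of all genes did. At an unadjusted p under 0.05, 6, 5 and 5 of the 10 genes differed at the 3 times. The share of all genes at that unadjusted cut was not counted, so these numbers have nothing to be set beside. In the joint test of the 3 semaglutide effects, edgeR called 7 of the 10 genes (Stab1, Lyve1, Clec4g, Cd34, Vwf, Aqp1 and Pecam1), where 30.9% of all genes were called.

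Clec4g had similar differences at the 3 times. It measured 38.7 to 63.6 CPM (median 54.2) with semaglutide, against 18.1 to 51.1 CPM (median 40.2) with vehicle at 8 weeks. At 16 weeks it measured 41 to 112 CPM (median 66.1) with semaglutide, against 37.5 to 78.4 CPM (median 42.8) with vehicle. By 24 weeks it measured 50.0 to 92.7 CPM (median 58.3) with semaglutide, against 30.9 to 63.4 CPM (median 38.1) with vehicle. Medians were higher with semaglutide each time, and the groups overlapped each time. The log2 fold changes were 0.49 ± 0.17, 0.46 ± 0.17 and 0.54 ± 0.17 (SE; edgeR adjusted p = 0.062, 0.053 and 0.015), and the joint test gave an adjusted p of 0.00045. Without semaglutide replicate 8 at 24 weeks, one of the separately numbered libraries and the highest Clec4g mouse of its group, the 24-week value was 0.45 (edgeR adjusted p = 0.050, not called), and without all 3 of these libraries it was 0.47 (0.043). Scaling to library totals, which moved the median of all genes to -0.24 at 24 weeks, left 0.315 (edgeR adjusted p = 0.11). At 16 weeks the value was 0.63 (0.0076) without vehicle replicate 2, whose 78.4 CPM stood above the next highest 52.9 CPM, and Clec4g was also called without semaglutide replicate 2, 5 or 6 (adjusted p from 0.021 to 0.037). At 8 weeks it was called without semaglutide replicate 1 or vehicle replicate 5 or 9 (0.038 to 0.045).

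Vwf was lower at 16 and 24 weeks. At 16 weeks it measured 4.33 to 14 CPM (median 9.81) with semaglutide, against 12.2 to 20.2 CPM (median 15.2) with vehicle, and fell by 0.71 ± 0.20 (SE, log2; edgeR adjusted p = 0.012). At 24 weeks it measured 5.33 to 16.7 CPM (median 11.2) with semaglutide, against 12.0 to 22.5 CPM (median 15.7) with vehicle, and fell by 0.55 ± 0.20 (0.037). The lowest Vwf value of both semaglutide groups came from a separately numbered library. Without those 3 libraries the differences were -0.51 at 16 weeks (edgeR adjusted p = 0.12) and -0.43 at 24 weeks (0.093), and neither was called. With a block on runs of library numbers they were -0.50 (0.11) and -0.45 (0.076), again not called. At 24 weeks Vwf kept its call in 7 of 15 fits that left out 1 mouse, and lost it without semaglutide replicate 1, 2, 7 or 8 or vehicle replicate 2, 3, 4 or 7 (adjusted p up to 0.12). At 16 weeks it lost it without semaglutide replicate 7 (-0.59, 0.055). Stab1 at 16 weeks measured 38.4 to 79.6 CPM (median 62.5) with semaglutide, against 62.4 to 97.8 CPM (median 77.2) with vehicle, and fell by 0.37 ± 0.13 (edgeR adjusted p = 0.045). It too was not called without the 3 libraries (-0.28, 0.22) or with the block (-0.24, 0.30), nor without semaglutide replicate 5, 6, 7 or 8 or vehicle replicate 1, 2, 3, 5, 6 or 7 (adjusted p up to 0.18).

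Cd34 at 24 weeks measured 1.05 to 6.87 CPM (median 2.31) with semaglutide, against 2.75 to 7.5 CPM (median 5.85) with vehicle. In all, 6 of the 8 semaglutide mice were below every vehicle mouse, the others were inside the vehicle range, and the fall was 1.00 ± 0.34 (edgeR adjusted p = 0.023). The call was lost without semaglutide replicate 2 (-0.86, edgeR adjusted p = 0.060) or vehicle replicate 5 (-0.91, 0.054). Pecam1 at 24 weeks measured 16.2 to 23.3 CPM (median 19.2) with semaglutide, against 17.1 to 29.2 CPM (median 26.6) with vehicle. It fell by 0.42 ± 0.135 (edgeR adjusted p = 0.016), and vehicle replicate 1 was the only vehicle mouse under 24.2 CPM. Lyve1 had log2 fold changes of -0.70, -0.58 and -0.59 at 8, 16 and 24 weeks (edgeR adjusted p = 0.067, 0.094 and 0.068) and an adjusted p of 0.003 in the joint test. Without vehicle replicate 4 its value at 8 weeks was -0.80 (edgeR adjusted p = 0.033), without vehicle replicate 3 it was -0.77 (0.042), and at 24 weeks without semaglutide replicate 4 it was -0.70 (0.037).

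Aqp1 at 8 weeks measured 83.1 to 142 CPM (median 119) with semaglutide, against 37 to 100.3 CPM (median 89.5) with vehicle. It rose by 0.47 ± 0.14 (edgeR adjusted p = 0.026), and the value was 0.37 (0.068) without vehicle replicate 4, the mouse at 37 CPM. Leaving out vehicle replicate 1 or semaglutide replicate 4, 5 or 6 also ended the call (adjusted p = 0.054 to 0.084), as did scaling to library totals (0.33, 0.14), no filter on low counts (0.47, adjusted p rounding to 0.050) and fitting only these groups (0.47, 0.053). Of the 7 tested cholangiocyte markers, 0 were called higher and 1 lower at this time (median log2 fold change -1.05; summed level 22.7 to 34.3 CPM with semaglutide, against 23.5 to 81.4 CPM with vehicle). Stab2 had log2 fold changes of 0.10, -0.18 and -0.08, with 95% intervals of -0.14 to 0.34, -0.42 to 0.06 and -0.32 to 0.17, and scaling to library totals turned the first to -0.04. Plvap (-0.29, -0.34 and -0.16) and Fcgr2b (0.30, 0.10 and -0.03) were not called at any time.

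**Figure D3:**
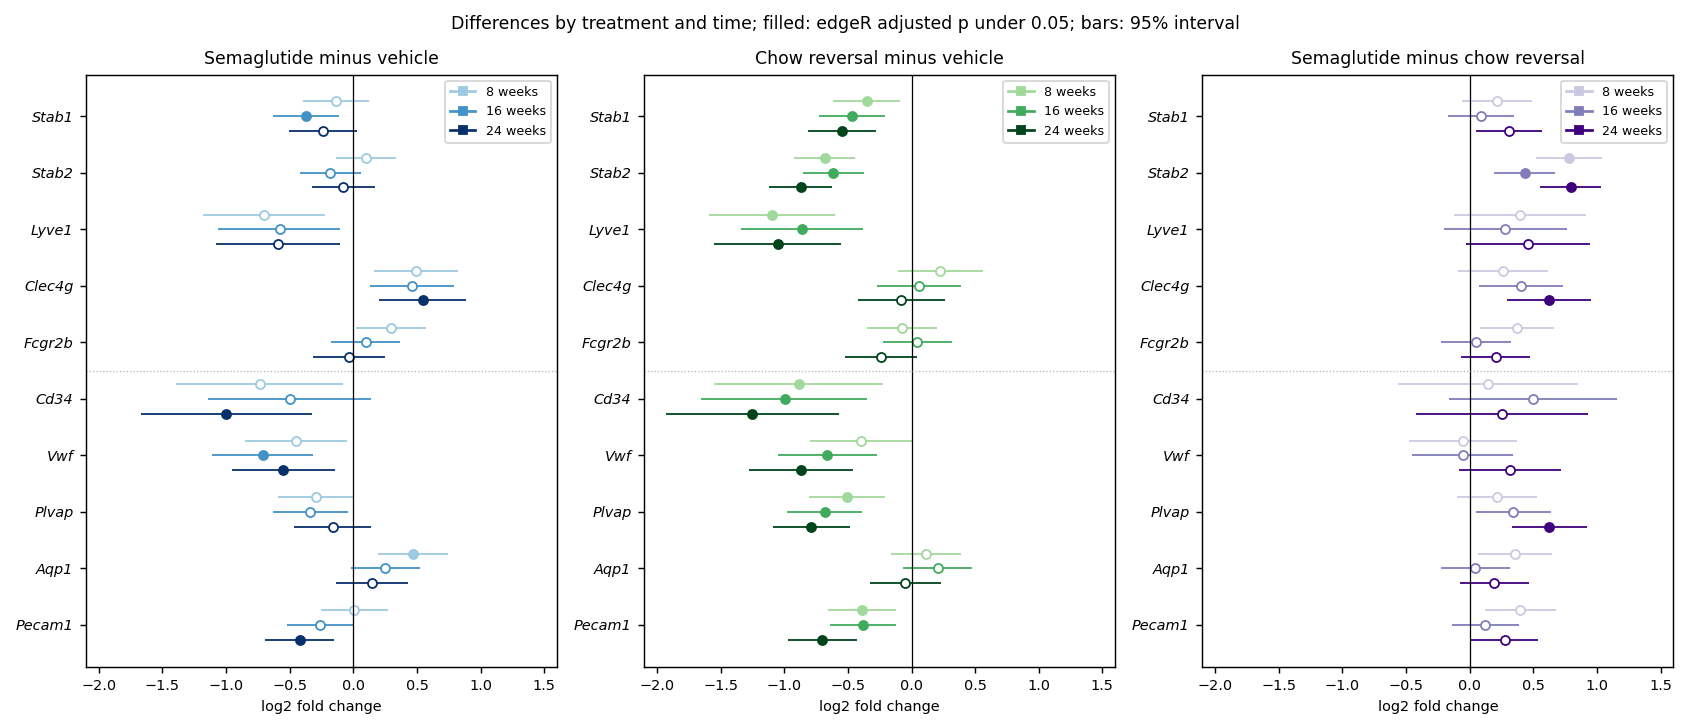
Log2 fold change (horizontal axes) of each gene (rows) for semaglutide minus vehicle, chow reversal minus vehicle and semaglutide minus chow reversal, at 8, 16 and 24 weeks from light to dark; bars are 95% intervals and filled circles passed an edgeR adjusted p of 0.05. Stab2 lies at 0.10, -0.18 and -0.08 with semaglutide and at -0.68, -0.61 and -0.87 with chow reversal, and its difference between the treatments is filled at all 3 times.

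Semaglutide and chow reversal were compared directly. Stab2 was the only gene called at 8 and 16 weeks, and at 24 weeks Stab2, Clec4g and Plvap were called, all of them higher with semaglutide. These are 1, 1 and 3 of the 10 genes, where 3.52%, 6.24% and 7.77% of all genes tested were called higher. Stab2 measured 55.7 to 73.8 CPM (median 64.5) with semaglutide, against 30.5 to 49.6 CPM (median 36.9) with chow reversal at 8 weeks, and 51.9 to 76.9 CPM (median 60.6) with semaglutide, against 24.0 to 50.8 CPM (median 34.5) with chow reversal at 24 weeks. The groups did not overlap at either time, as for 1.94% and 0.315% of all genes higher with semaglutide, and they overlapped at 16 weeks. The log2 fold changes of Stab2 were 0.78 ± 0.13, 0.43 ± 0.12 and 0.79 ± 0.12 (edgeR adjusted p = 1.3e-05, 0.012 and 1.4e-06).

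Clec4g at 24 weeks measured 50.0 to 92.7 CPM (median 58.3) with semaglutide, against 30.3 to 52.2 CPM (median 42) with chow reversal, and was higher by 0.62 ± 0.17 (edgeR adjusted p = 0.0067). Plvap measured 38 to 117 CPM (median 65.2) with semaglutide, against 36.4 to 62 CPM (median 41.7) with chow reversal, and was higher by 0.63 ± 0.15 (0.0022), or by 0.64 (0.058, not called) with only these groups in the fit. The differences of Cd34 at 24 weeks (0.25, 95% interval -0.42 to 0.93), Lyve1 (0.46, -0.03 to 0.95) and Vwf (0.32, -0.08 to 0.72) were not called, and their intervals hold 0 as well as sizeable differences with semaglutide higher. Kupffer cell markers moved with this comparison at 24 weeks: 4 of 5 were called higher with semaglutide (summed level 359 to 891 CPM with semaglutide, against 65.3 to 428 CPM with chow reversal). Called higher too were 2 of 6 recruited macrophage, 2 of 7 stellate cell and 2 of 4 T cell genes. Their part in the values of Stab2 and Plvap was not tested.

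Against chow-fed mice at 24 weeks, the treated groups stood at different distances. With semaglutide Stab1, Stab2, Lyve1, Cd34 and Plvap were higher, and with chow reversal Lyve1 was higher and Fcgr2b lower. These are 5 of 10 genes higher with semaglutide (17.9% of all genes tested), and with chow reversal 1 higher (5.72%) and 1 lower (0.913%). Lyve1 measured 4.46 to 11.6 CPM (median 6.51) with semaglutide, against 1.27 to 4.53 CPM (median 2.04) in chow-fed mice, a log2 fold change of 1.68 ± 0.27 (edgeR adjusted p = 1.2e-06). With chow reversal its log2 fold change against chow was 1.22 ± 0.27 (edgeR adjusted p = 0.0021), kept without any single library (1.07 to 1.48) but not with only these groups in the fit (1.23, 0.071). Plvap was higher with semaglutide by 0.93 ± 0.16 (2.2e-06) and had no overlap with chow, as for 4.29% of all genes, and with chow reversal its difference was 0.30 (95% interval -0.004 to 0.61, not called). Stab2 was higher with semaglutide by 0.65 ± 0.12 (3.1e-05) and differed by -0.14 with chow reversal (95% interval -0.39 to 0.10).

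Fcgr2b measured 21.8 to 42.2 CPM (median 33.6) with chow reversal, against 37.2 to 55.9 CPM (median 42) in chow-fed mice. It fell by 0.45 ± 0.14 (edgeR adjusted p = 0.035), and the call was lost without chow replicate 5, 6 or 7 or chow reversal replicate 2, 7 or 8 (adjusted p up to 0.12). It was also lost with library totals (-0.33, 0.20), with no filter (-0.46, 0.055) and with only these groups in the fit (-0.45, 0.17), and library totals left 2 of the 10 genes higher and 0 lower. Of the 14904 genes tested, library totals called 1331 higher and 56 lower in this comparison. Cd34 was higher with semaglutide than with chow by 0.99 ± 0.37 (edgeR adjusted p = 0.033), a call lost without chow replicate 1, 3, 4 or 6 or semaglutide replicate 8 (adjusted p up to 0.061) or semaglutide replicate 3 (0.65, 0.17). It was also lost without the 3 separately numbered libraries (0.92, 0.053), with the block (0.82, 0.068) and with no filter (0.99, 0.052). Stab1 was higher by 0.39 ± 0.135 (0.023) and by 0.32 (0.074) without semaglutide replicate 4. Vwf differed by -0.01 with semaglutide, and by 0.45 (edgeR adjusted p = 0.049) without chow replicate 5. All 3 comparisons with chow share the same 7 chow-fed mice.

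Time on study was examined in vehicle mice at 24 against 8 weeks and as the change of each treatment effect between these times. In vehicle mice Vwf differed by 0.43 ± 0.20 and Pecam1 by 0.29 ± 0.13, both with an edgeR adjusted p of 0.37. None of the 10 genes was called by edgeR or DESeq2, where 0.792% of all genes were called by edgeR, and 2 had an unadjusted p under 0.05 (Vwf and Pecam1). For the change of the semaglutide effect between 8 and 24 weeks, 0 of 10 were called by either tool (0.0604% of all genes by edgeR) and 1, Pecam1, had an unadjusted p under 0.05 (-0.43 ± 0.19; adjusted p = 0.97). The share of all genes at this unadjusted cut was not counted. For the chow reversal effect, 0 of 10 were called by either tool (0.215% of all genes by edgeR) and 0 had an unadjusted p under 0.05. The 95% intervals of these changes were wide, from -0.72 to 0.06 for Fcgr2b and from -1.19 to 0.67 for Cd34 with semaglutide. Differences between times of these sizes were not detectable here.

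The ratio of a pair of sinusoidal genes within each mouse does not depend on how libraries are scaled. It is given as a description with no test, since its genes were tested above. The log2 ratio of Clec4g to Stab2 CPM had medians of -0.21, 0.04 and -0.10 with semaglutide at 8, 16 and 24 weeks, 0.20, 0.13 and 0.19 with chow reversal, -0.66, -0.71 and -0.63 with vehicle, and 0.44 with chow. At 24 weeks it ranged over -0.53 to 0.84 with semaglutide, -0.29 to 0.66 with chow reversal, -1.12 to -0.17 with vehicle and 0.02 to 0.70 with chow. All chow-fed mice lay above all vehicle mice of that time, and the medians of the treated groups lay between theirs. The log2 ratio of Lyve1 to Clec4g at 24 weeks had medians of -3.08 with semaglutide, -3.02 with chow reversal, -1.86 with vehicle and -4.71 with chow, so that both treated medians were again between those of vehicle and chow. So were those of Cd34 to Pecam1, with -3.04 for semaglutide, -2.84 for chow reversal, -2.23 for vehicle and -3.66 for chow. The ratio of Plvap to Stab2 did not follow this order, with medians of -0.001 for semaglutide, 0.24 for chow reversal, 0.06 for vehicle and -0.16 for chow.

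**Figure D4:**
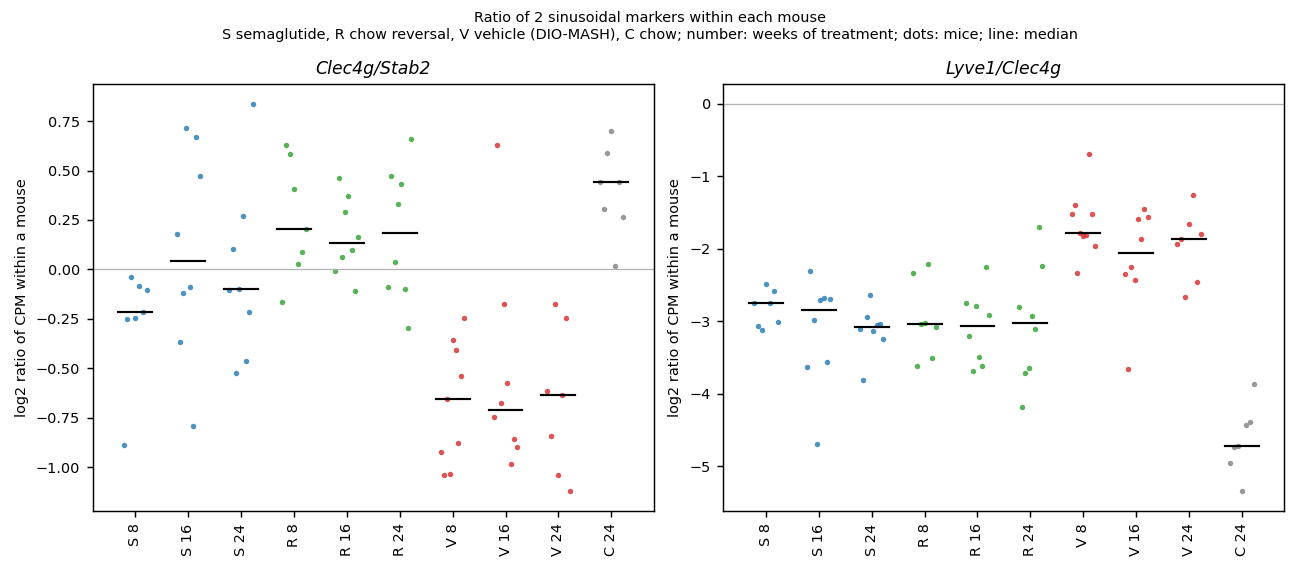
Log2 ratio of CPM within each mouse (vertical axes) of Clec4g to Stab2 (left) and of Lyve1 to Clec4g (right), by group; each dot is a mouse and each line a group median. The Clec4g to Stab2 medians are -0.71 to -0.63 with vehicle, 0.44 with chow and between them in both treated groups.

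Other endothelial genes were taken from lists, with the genes named by their joint semaglutide p. At 24 weeks the shares of all genes tested to set beside the counts are 25.8% higher and 22.0% lower for the diet against chow, 17% higher and 19.1% lower for chow reversal against vehicle, and 10.8% higher and 13.6% lower for semaglutide against vehicle. Of 11 tested further sinusoidal genes, 3 were higher and 2 lower in vehicle mice than in chow-fed mice at 24 weeks (median log2 fold change -0.14), shares near those of all genes. The 3 higher were Mrc1 (0.65), Flt4 (0.80) and Maf (0.43), named after their values were seen, and the 2 lower were Dnase1l3 (-0.54), which encodes a secreted nuclease, and Ehd3 (-1.03), an endocytic trafficking gene of sinusoidal cells. Ehd3 moved the other way with both treatments at 24 weeks, and it measured 22.2 to 40.4 CPM (median 33.4) with semaglutide and 19.7 to 47.5 CPM (median 36.1) with chow reversal, against 19.9 to 28 CPM (median 25.1) with vehicle. It rose by 0.47 ± 0.17 with semaglutide (edgeR adjusted p = 0.033) and by 0.54 with chow reversal (0.0083). It was the only further sinusoidal gene called with semaglutide at 24 weeks, while with chow reversal Mrc1 (-0.82) and Maf (-0.36) were also called, lower. Bmp2, an iron-sensing signal of sinusoidal cells, passed only the joint test (edgeR adjusted p = 0.039), with log2 fold changes of 0.415, 0.39 and 0.28.

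Of 22 general endothelial genes, 10 were higher and 1 lower in vehicle than in chow-fed mice (median 0.39), 13 were lower and 1 higher with chow reversal than with vehicle at 24 weeks (median -0.49), and 1 was lower and 1 higher with semaglutide (median -0.15), shares below those of all genes. Cd93, a receptor of endothelium and myeloid cells, measured 4.37 to 10.7 CPM (median 6.13) with semaglutide, against 11.4 to 19.6 CPM (median 17) with vehicle at 24 weeks. The groups did not overlap, and Cd93 fell by 1.29 with semaglutide (edgeR adjusted p = 6.5e-06) and by 1.54 with chow reversal (2.4e-08). S1pr1, the sphingosine phosphate receptor of endothelium, moved against the other called genes of the list. It was lower with the diet (-0.86, 8.3e-06) and higher at 24 weeks with semaglutide (0.43, 0.034) and chow reversal (0.46, 0.016). Cdh5, the junction cadherin of endothelium, fell by 0.77 with chow reversal (0.00014) and differed by -0.42 with semaglutide (0.053).

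Of 11 tested genes of activated or continuous endothelium, 9 were higher in vehicle than in chow-fed mice (median 1.59), 7 were lower with chow reversal (median -0.79) and 7 were lower with semaglutide (median -0.77) at 24 weeks, with 0 in the other direction. At 8 weeks 1 was lower with semaglutide and 6 with chow reversal, where 523 and 2665 of all genes tested were lower. At 16 weeks these were 1 and 3, where 864 and 2410 of all genes were lower. Vcam1, a leukocyte adhesion molecule also found on other liver cells, measured 11.9 to 35.7 CPM (median 24.1) with semaglutide, against 27.4 to 64.1 CPM (median 45.2) with vehicle, and fell by 1.05 (edgeR adjusted p = 0.0017). Lamb1, a laminin chain of basement membranes, fell by 0.45, 0.48 and 0.51 with semaglutide at the 3 times (edgeR adjusted p = 0.043, 0.016 and 0.0061). Cav1, the caveolar coat gene, measured 0.961 to 3.09 CPM (median 1.63) with semaglutide, against 4.22 to 14.7 CPM (median 5.98) with vehicle at 24 weeks. The groups did not overlap, and Cav1 fell by 2.12 (edgeR adjusted p = 1.1e-05). The semaglutide median was also below those of chow-fed mice (4.14 CPM, range 2.25 to 6.11) and of chow reversal mice at 24 weeks (3.51 CPM). With chow reversal the difference of Cav1 was -0.47 (0.30), and it was lower with semaglutide than with chow reversal by 1.66 ± 0.36 (0.00071). One chow reversal mouse, replicate 8, held 18.7 CPM of Cav1 against 6.10 CPM in the next highest.

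Of 11 tested arterial and central vein genes, 4 were lower and 1 higher with semaglutide at 24 weeks (median -0.44). The 4 lower were Efnb2 (-0.72), an arterial ephrin, Hey1 (-0.87), a Notch target, and, named after their values were seen, Gja5 (-0.95) and Ntn4 (-0.44). The 1 higher was Wnt2, a signal of central vein and sinusoidal endothelium to hepatocytes. It measured 2.10 to 5.87 CPM (median 3.51) with semaglutide, against 1.51 to 2.68 CPM (median 2.25) with vehicle, and rose by 0.86 (edgeR adjusted p = 0.0057), while its difference with chow reversal was 0.09 (0.80). The highest semaglutide mouse, replicate 8 (next 5.49 CPM), was one of the separately numbered libraries. Wnt2 was lower with the diet than with chow (-0.75, 0.0096) and higher with semaglutide than with chow reversal at 24 weeks (0.77, 0.018). Of 13 tested vascular growth factors and receptors, 0 were called with semaglutide at 24 weeks by edgeR. Vegfa, the main endothelial growth factor, was lower with the diet (-0.81, 3.9e-05) and higher with chow reversal at 24 weeks (0.60, 0.0023), and differed by 0.28 with semaglutide (0.21). Of 10 nitric oxide and shear response genes, 8 were higher with the diet, 3 were lower with chow reversal and 2 (Cav1 and Edn1) were lower with semaglutide at 24 weeks. Edn1, which encodes the constrictor peptide endothelin, differed by -0.87 with an adjusted p that rounds to 0.050. Its level was low, with medians of 0.387 CPM with semaglutide and 0.938 CPM with vehicle, so its difference rests on few counts.

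Marker lists of other cells moved with the treatments. Recruited macrophage genes were lower for 5 of 6 with semaglutide at 24 weeks (summed level 198 to 628 CPM, against 453 to 791 CPM with vehicle) and for 6 of 6 with chow reversal (72.3 to 390 CPM). Kupffer cell genes were lower for 3 of 5 with chow reversal, and 1 was higher and 1 lower with semaglutide at 24 weeks (Marco and Cd5l, named after their values were seen). Hepatocyte genes were higher for 8 of 10 with semaglutide and for 10 of 10 with chow reversal. Stellate cell genes were lower for 2 of 7 with semaglutide (209 to 496 CPM) and for 5 of 7 with chow reversal (180 to 371 CPM), against 349 to 505 CPM with vehicle. Portal fibroblast and mesothelium genes, cells that can also hold Cd34, were lower for 3 of 9 with semaglutide (21.2 to 54.7 CPM) and for 5 of 9 with chow reversal (16.3 to 45 CPM), against 41.6 to 98.8 CPM with vehicle. T cell genes, which bear on Pecam1, were lower for 0 of 4 with semaglutide (2.56 to 8.05 CPM) and for 3 of 4 with chow reversal (1.18 to 4.12 CPM), against 2.87 to 9.36 CPM with vehicle. Of the lymphatic genes, which bear on Lyve1, 2 of 5 were lower with semaglutide (Mmrn1 and Ccl21a) and 1 of 5 with chow reversal (Pdpn), these 3 named after their values were seen. Reln is in this list and in the stellate cell list, so the lymphatic list does not mark those vessels alone. Of the platelet genes, which bear on Vwf and Pecam1, 1 of 3 tested, Pf4, was lower with either treatment, and their summed level was 3.02 to 9.53 CPM with semaglutide and 2.20 to 6.89 CPM with chow reversal, against 3.82 to 9.89 CPM with vehicle. B cell genes, which bear on Fcgr2b, were called in neither direction with either treatment at 24 weeks by edgeR. The part of these cells in the endothelial values was not tested.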

How the data were processed

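Bulk liver RNA of 77 mice was sequenced with a directional kit. The deposited table holds the authors' estimated counts per Ensembl gene, and the submitters' processing notes and the study's methods name STAR 2.7.3a, Salmon 1.2.0, FastQC 0.11.9, Picard and DESeq2 with the GRCm38 genome. The strand setting and the annotation release are not given in the sources used here.

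Estimated counts were rounded to whole numbers. GENCODE M21 named 55227 of 55487 IDs, and the 260 without a name held 0.01548% of counts. After filterByExpr by group, 14904 genes were fitted in edgeR 4.0.16 (R 4.3.3, limma 3.58.1) with all 10 groups, TMM factors and quasi-likelihood tests, adjusted by Benjamini-Hochberg over all genes tested at a threshold of 0.05. Each contrast was taken from that fit, and the joint test took the semaglutide effects at 3 times together. CPM are TMM-scaled, and intervals are 95%. Libraries held 8883150 to 37631072 counts, and counting error was largest for Cd34 and Lyve1, the genes with the fewest counts. No pair of libraries in a group agreed within sampling noise. Scripts were tested on simulated data, with genes changed in the semaglutide group at 24 weeks. Against vehicle, edgeR recovered 21 of 49 genes changed 1.5-fold and 38 of 50 changed 2-fold. It called 7 of 14460 unchanged genes. A gene that was not called can therefore still differ by such amounts.

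Groups follow the labels, and replicates are separate mice numbered in accession order. The 10 genes and all gene lists were chosen with earlier results of these data known. Beside the 10 genes, up to 3 genes per endothelial list were named, those with the smallest joint semaglutide p. Alternatives were DESeq2 1.42.0, RLE factors, library totals, no filter, only the compared groups, left-out libraries and blocking on runs of library numbers. Leaving out chow replicate 5 with vehicle 8-week replicate 4 was added after seeing the data. Promoters came from RefSeq (GRCm38.p6).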

Additional observations from a re-analysis of the deposited data

Results flagged for a closer look

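A gap test for a single far mouse was run on each of the 10 genes in each of the 10 groups. It marked 16 of 100 groups. The rate of about 1 in 20 groups marked by chance holds for separate and symmetric sets of values. Here the 10 genes share the same mice and CPM are on a linear scale. No excess over chance can therefore be read from the count. Replicate 4 of the vehicle group at 8 weeks was far below its group for Stab2 (37.1 CPM, next 56.2), Fcgr2b (19.5, next 32.7), Aqp1 (37, next 70.8) and Pecam1 (10.3, next 18.2). Replicate 6 of the vehicle group at 16 weeks was far above its group for Stab1 (97.8 CPM, next 79.0), Fcgr2b (50.8, next 40.7) and Cd34 (12.1, next 6.77), and replicate 2 of that group for Clec4g (78.4, next 52.9). In vehicle mice at 24 weeks, replicate 5 was far above the rest for Lyve1 (17.7 CPM, next 12.0) and replicate 1 far below for Pecam1 (17.1, next 24.2).

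Among treated mice, replicate 4 of the 24-week semaglutide group held 117 CPM of Plvap (next 74.7). Replicate 5 of the chow reversal group at 8 weeks held 11 CPM of Lyve1 (next 6.01), and replicate 7 at 24 weeks held 62 CPM of Plvap (next 45.1). Of the chow-fed mice, replicate 7 was far above the others for Stab1 (63.2 CPM, next 47.5) and Lyve1 (4.53, next 2.59), and replicate 5 for Vwf (28.4, next 10.7).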

How the results depend on the processing

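No paired analysis was possible because each mouse has its own animal number and the replicate numbers are accession order. The block used below is on runs of library numbers, which do not tie animals together. For single genes, 1242 values kept their direction and side of the threshold under an alternative, 33 lost the call, 38 gained it and 37 turned sign, and the cause was not tested.

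Scaling to library totals moved the median of all genes to -0.13, -0.18 and -0.24 for semaglutide against vehicle at 8, 16 and 24 weeks. There it gave 2 called genes at 8 weeks, both lower where TMM had 1 higher, 5 at 16 weeks, all lower, and 6 lower and 0 higher at 24 weeks, where TMM had 3 lower and 1 higher. Of the 14904 genes tested, it called 1054, 2367 and 4340 lower at these times. It gave 4 and 2, all higher, for semaglutide against chow reversal at 8 and 16 weeks, where it called 1296 and 1416 of all genes tested higher. With semaglutide against vehicle it turned Stab2 (-0.035) and Pecam1 (-0.13) at 8 weeks, Fcgr2b at 16 weeks (-0.082) and Aqp1 at 24 weeks (-0.079). With chow reversal against vehicle it turned Clec4g (-0.048) and Aqp1 (-0.16) at 8 weeks, and Clec4g (-0.18), Fcgr2b (-0.215) and Aqp1 (-0.0445) at 16 weeks. It turned Vwf between semaglutide and chow reversal at 8 (0.089) and 16 weeks (0.015), Clec4g (0.12), Fcgr2b (0.21) and Aqp1 (0.22) in vehicle against chow, Vwf (0.16) and Aqp1 (0.14) in semaglutide against chow, and the change of the Clec4g semaglutide effect (-0.044).

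Semaglutide against vehicle at 8 weeks gave 0 calls with no filter, 2 without the 3 separately numbered libraries, 3 with only the compared groups and 2 with DESeq2. At 16 weeks it gave 1 with RLE factors, no filter, only the compared groups or without the vehicle library numbered out of order, and 0 without the 3 libraries or with the block on library numbers. Chow reversal against vehicle at 8 weeks gave 3 without the library out of order (vehicle 8-week replicate 7, numbered in the place of a chow reversal library). Semaglutide against chow reversal at 8 weeks gave 2 with the block or without the pair of doubted mice (chow replicate 5 and vehicle 8-week replicate 4), and 3 with only the compared groups. Chow reversal against chow gave 1 with no filter or without that pair, and 0 with only the compared groups. RLE factors called 844 of all genes tested lower with semaglutide against vehicle at 16 weeks. For the other settings of this paragraph the calls over all genes are not given. Their counts therefore have nothing to be set beside.

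Without the 3 libraries, and with the block, semaglutide against chow reversal at 16 weeks turned for Fcgr2b (-0.032 and -0.044) and Vwf (0.14 and 0.16). Those settings also turned the change of the Vwf semaglutide effect (0.0062 and 0.00604), and the first that of Clec4g (-0.043). Vwf in semaglutide against chow, near 0, turned with RLE factors (0.014), no filter (0.0010), without the 3 libraries (0.11), without the library out of order (0.0022), with the block (0.13), without the pair (0.43) and with DESeq2 (0.015). Without the pair Vwf turned in chow reversal against chow (0.12) and Pecam1 in semaglutide against vehicle at 8 weeks (-0.079). Without the pair edgeR called Clec4g higher in semaglutide against vehicle at 16 weeks (0.46, adjusted p = 0.039). It then called Pecam1 higher in semaglutide against chow reversal at 8 weeks (0.40, 0.04) and against chow (0.37, 0.023). The block turned Pecam1 in chow reversal against chow (-0.026). Without the 3 libraries edgeR called Clec4g higher in semaglutide against vehicle at 8 weeks (0.51, adjusted p = 0.046). It also called Stab1 higher in semaglutide against chow reversal at 24 weeks (0.37, 0.036) and Fcgr2b lower in semaglutide against chow (-0.35, 0.041). The change of the Lyve1 effect turned without the library out of order for semaglutide (-0.029) and chow reversal (-0.11), and with the block for chow reversal (-0.011).

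Leaving out 1 mouse at a time gave 0 to 2, 0 to 3 and 2 to 5 calls for semaglutide against vehicle at 8, 16 and 24 weeks. It gave 3 to 6, 5 to 7 and 7 to 7 for chow reversal against vehicle, and 1 to 3, 1 to 2 and 3 to 4 for semaglutide against chow reversal. Against chow it gave 6 to 7 for vehicle, 4 to 7 for semaglutide and 1 to 2 for chow reversal. Calls over all genes are not given for these fits either, so the ranges have nothing to be set beside. Counts were lowest for Cd34 and Lyve1, whose fitted variation between mice (coefficients of 0.436 and 0.324) was also the highest of the 10.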
